A study of Trichoderma reesei with 6 samples.

Results

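Transcript signals of Trichoderma reesei mycelia grown on glucose were compared with those of mycelia grown on glycerol, on 4 of the 6 arrays of the series, 2 for each of these carbon sources. Every array feature was a member of the comparison, 9126 in all, of which 9122 carry a Trire2 protein ID. All cultures were of strain QM9414, an early cellulase-producing mutant, in shake flasks at 30 °C with the carbon source at 10 g/l, and the labels give 24 h of growth on glucose and on glycerol. The remaining 2 arrays, from lactose cultures labelled with a longer growth time, entered the comparison only through the estimate of the spread. They also counted in setting the low end of signals and the dimmest features, both used below. The labels speak of duplicate flasks and also of mixed replicates of mycelium, so the difference between the 2 arrays of a carbon source may be technical in part, and the p-values then measure that difference alone.

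Glucose is the preferred sugar of many fungi, and in T. reesei the repressor CRE1 keeps genes for the use of other carbon sources low while glucose lasts. Glycerol enters metabolism through the lower part of glycolysis and is commonly used for this fungus as a carbon source that neither induces cellulases nor strongly represses them. Cells that grow on compounds with few carbon atoms may need gluconeogenesis, and the glyoxylate cycle is the route by which fungi make sugars from acetyl-CoA.

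The deposited values are log2 signals, so a difference of 1 is a 2-fold difference, and all differences below are glucose minus glycerol. Signals on the 4 arrays ran from 2.70 to 15.90, with array medians between 10.80 and 10.85. Across features the 2 glucose arrays correlated with r = 0.998 and the 2 glycerol arrays with r = 0.996, while arrays of different carbon sources correlated with r = 0.938 on average. These coefficients are over genes, which are not independent replicates. The median absolute difference was 0.13 between the 2 glucose arrays and 0.17 between the 2 glycerol arrays, against 0.32 between the means of both carbon sources. More than 2-fold separated the 2 glucose arrays for 4 features and the 2 glycerol arrays for 16. There were no detection calls. Signals under 4.66 on the log2 scale, which 10% of the values on the 6 arrays were, are called the low end here, and a fold that involves such a signal is imprecise.

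A gene was called when glucose and glycerol differed by more than 2-fold and the p of limma, adjusted by Benjamini-Hochberg over all features, was under 0.05. The program fits a linear model that shares the spread over genes. On glucose 775 genes were higher (8.49% of the features) and 828 were lower (9.07%), together 17.6%. The median fold was 3.06 among the higher and 3.04 among the lower genes. More than 4-fold differences were found for 267 higher and 279 lower genes, and more than 16-fold differences for 46 higher and 72 lower genes. In 599 of the higher and 672 of the lower genes, each glucose array differed from each glycerol array by more than 2-fold. The adjusted p alone was under 0.05 for 3899 features, so the 2-fold threshold left out 2296 of them. When the fold itself was tested against 2-fold with the treat option of limma, 441 genes were higher and 461 were lower. The median difference over all features was 0.03.

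**Figure D1:**
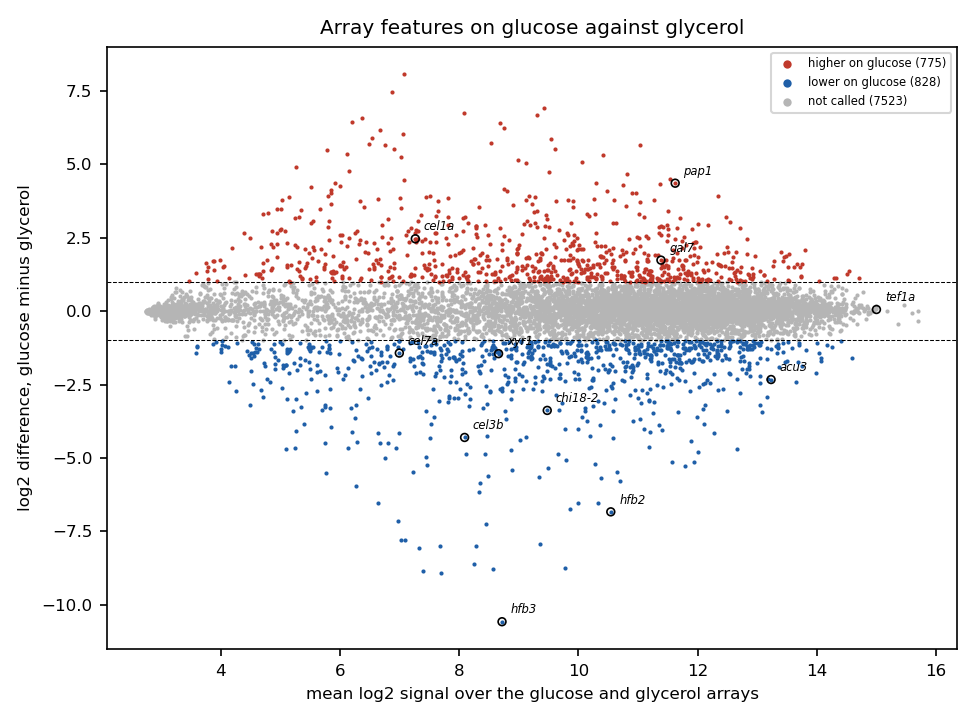
Each point is 1 array feature. The horizontal axis is its mean log2 signal over the glucose and glycerol arrays and the vertical axis its log2 difference, glucose minus glycerol. Red points are the 775 genes called higher on glucose, blue points the 828 called lower and grey points the 7523 not called, and dashed lines mark 2-fold. The lower genes reach further from 0, down to hfb3 at -10.57.

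Most of these genes have no name in the sources used. Of the higher genes 583 (75.2%) and of the lower genes 597 (72.1%) had neither a RefSeq symbol nor an annotation by the study, against 80.9% of all features, and 56 higher and 104 lower genes were annotated as proteins of unknown function. This left 136 higher and 127 lower genes with a symbol or a function. RefSeq symbols, which were given independently of these arrays, exist for 235 features, and 9 of these were higher and 17 were lower on glucose, together 11.1% against 17.6% of all features. The study's annotations cover genes that it had selected on these same arrays for a difference of lactose from both other carbon sources. Counts over them therefore describe that selection and are not independent evidence. Of the 853 features with a function annotated by the study and no symbol, 14.9% were higher and 12.9% lower on glucose, together 27.8%. Lists below that draw on these annotations are to be read beside these shares.

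Of the 15 largest differences 13 in either direction were of genes without a name or function, a class that held 88.1% of all features. Among genes higher on glucose, Trire2:112034 led with log2 signals of 10.98 and 11.23 on glucose, against 3.04 and 3.04 on glycerol. Trire2:60144 followed with 10.47 and 10.76 on glucose, against 3.08 and 3.21 on glycerol. Both were at the low end on glycerol, and their fitted folds of 267 and 178 are imprecise for that reason. Among genes lower on glucose without a name, Trire2:59368 had 3.24 and 3.22 on glucose, against 12.24 and 12.05 on glycerol, and Trire2:81082 had 3.01 and 2.90 on glucose, against 11.63 and 12.00 on glycerol. The low end held 1 group for 8 of the 15 largest higher and 11 of the 15 largest lower genes.

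The hydrophobin gene hfb3 led the genes lower on glucose, and hfb2 was also among the 15 largest of these differences. Hydrophobins are small secreted proteins that coat hyphae and spores and lower the surface tension of water. hfb3 (Trire2:123967) had log2 signals of 3.15 and 3.71 on glucose, against 14.02 and 13.99 on glycerol, so a gene among the brightest of the glycerol arrays was at the low end on glucose. Its fitted difference of -10.57 ± 0.18 (SE, n = 2 arrays each; limma adjusted p = 5.35e-09) was the largest on the array in either direction and amounts to 1524-fold. With all signals under the low end raised to that level it was -9.35. hfb2 (Trire2:119989), known from conidia, had 6.72 and 7.54 on glucose, against 13.95 and 13.97 on glycerol, which was 114-fold lower (limma adjusted p = 1.46e-07). hfb1 (Trire2:73173), the hydrophobin of vegetative hyphae, had 6.79 and 7.00 on glucose, against 9.61 and 9.13 on glycerol, 5.55-fold lower (limma adjusted p = 7.71e-06). In none of these genes did the arrays of both carbon sources overlap, which by itself was common, since 69.1% of all features had no overlap and 32.2% had none with glucose lower.

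In all, 4 of the 5 hydrophobin genes on the list were lower (80.0%, against 9.07% of all features), with a list median of -4.50 against 0.03 over all features. The fourth, annotated as HFB5 (Trire2:106538), had 3.60 and 3.42 on glucose, against 8.34 and 7.68 on glycerol. The exception was a class II hydrophobin (Trire2:105869) with 8.21 and 8.25 on glucose, against 7.26 and 7.65 on glycerol, a difference of 0.78 that stayed under 2-fold. The 2 annotated markers of conidia ran the other way from hfb2. The gene of conidiation-specific protein 10 (Trire2:5084) had 7.51 and 7.68 on glucose, against 6.46 and 5.72 on glycerol, 2.85-fold higher (limma adjusted p = 0.0008). The gene of the developmental regulator WetA (Trire2:4430) had 7.35 and 7.02 on glucose, against 6.21 and 6.17 on glycerol. Its difference of 1.00 lay at the threshold, and it was 0.83 without glucose replicate 1 and 0.98 without glycerol replicate 2. What part conidia had in the hydrophobin values was not tested, and in whole mycelium fewer cells of a type cannot be told apart from less RNA per cell.

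Central carbon metabolism differed at a few steps. In the glyoxylate cycle the isocitrate lyase gene acu3 (Trire2:21758) had 12.01 and 12.12 on glucose, against 14.40 and 14.40 on glycerol, and was 5.03-fold lower on glucose (-2.33 ± 0.13, SE; limma adjusted p = 2.81e-06). The malate synthase gene acu9 (Trire2:79271), the second enzyme of this cycle, had 11.50 and 11.38 on glucose, against 12.76 and 12.74 on glycerol, 2.48-fold lower (limma adjusted p = 3.99e-05). Both enzymes particular to the cycle were therefore lower on glucose, with glucose and glycerol arrays apart by more than the spread within either. A malate dehydrogenase gene (Trire2:62153) was 2.85-fold lower and a gene for acetate-CoA ligase (Trire2:54870), which activates acetate, 2.54-fold lower.

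Carriers that move organic acids through the mitochondrial membrane went in the same direction. The succinate/fumarate antiporter gene (Trire2:121743), whose yeast counterpart links the glyoxylate cycle to gluconeogenesis, had 8.24 and 8.49 on glucose, against 10.77 and 10.58 on glycerol, 4.96-fold lower. An oxoglutarate/malate carrier gene (Trire2:47930) had 3.44 and 3.61 on glucose, at the low end, against 6.87 and 6.96 on glycerol. In the citrate cycle itself the genes of citrate synthase (cit1) and of a subunit of isocitrate dehydrogenase (idh2) were not called, at 0.31 (95% interval -0.04 to 0.65) and 0.51 (0.23 to 0.79). The acetyl-CoA synthetase gene acs1 was at 0.45 (0.14 to 0.77). One gene of the list was higher on glucose, the beta subunit of a GDP-forming succinate-CoA ligase (Trire2:103451), at 1.05, but 0.99 without glycerol replicate 1. Of the 11 genes of the citrate and glyoxylate cycle and acetyl-CoA metabolism, 4 were lower (36.4%, against 9.07% of all features), 1 was higher (9.09%, against 8.49%) and 6 were not called.

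Glycolytic genes were bright on both carbon sources and differed by less than 2-fold. Hexokinase (hxk1) had 13.73 and 13.78 on glucose, against 13.65 and 13.55 on glycerol, a difference of 0.16 with a 95% interval of -0.10 to 0.41. Glyceraldehyde-3-phosphate dehydrogenase (gpd1) had 14.85 and 14.88 on glucose, against 14.99 and 14.86 on glycerol, a difference of -0.06 (-0.37 to 0.25). Phosphoglycerate kinase (pgk1) was at -0.54 (-0.88 to -0.19) and enolase (eno1) at -0.34. The largest rise on the list was of a phosphoglycerate mutase gene (Trire2:77656), at 0.72 (0.43 to 1.01), which was not called. The intervals of hxk1 and gpd1 leave out 2-fold differences in either direction. Of the 10 genes on the list only a dim transketolase gene (Trire2:2211) was called, lower at -1.17 with glucose at the low end, and it was -0.99 without glycerol replicate 2. Without glucose replicate 1 a phosphoketolase gene (Trire2:61553) was called as well, lower at -1.07 (-0.92 on all arrays).

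Neither gene listed here by name under glycerol was lower on glucose, and no other such gene is given. The part of either gene in the use of glycerol was not tested. gfd1 (Trire2:2574), which encodes a glycerol-3-phosphate dehydrogenase, had 12.35 and 12.22 on glucose, against 12.26 and 12.08 on glycerol, a difference of 0.12 (95% interval -0.16 to 0.39). gld1 (Trire2:122778), named for glycerol dehydrogenase, had 11.97 and 12.25 on glucose, against 11.08 and 11.08 on glycerol, and was called higher on glucose at 1.03, but was 0.89 without glucose replicate 2. Galactose is broken down through the Leloir pathway by galactokinase (gal1), a uridylyltransferase (gal7) and an epimerase (gal10). Of these gal7 (Trire2:111074) was 3.33-fold higher on glucose, with 12.14 and 12.36 on glucose, against 10.67 and 10.36 on glycerol (limma adjusted p = 2.36e-05). gal1 was at 0.86, not called, and 1.07 without glycerol replicate 2, where it was called. gal10 was at -0.05 (95% interval -0.37 to 0.27), so the members of this pathway differed among themselves.

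The D-galacturonate reductase gene gar1 (Trire2:22004) was 2.75-fold higher on glucose, with 10.84 and 11.02 on glucose, against 9.53 and 9.41 on glycerol. Among genes listed by name under pentose use, lxr1 (Trire2:74194), named for L-xylulose reductase, was 3.94-fold lower on glucose (limma adjusted p = 2.81e-06). Its signals were 11.86 and 11.82 on glucose, against 13.88 and 13.76 on glycerol, and its role in that use was not tested. The other genes so listed were not called, with xyl1 (xylose reductase) at 0.94, xdh1 (xylitol dehydrogenase) at -0.47 and lad1 (L-arabinitol dehydrogenase) at -0.72. However, xyl1 was at 1.08 without glucose replicate 2 and at 1.13 without glycerol replicate 1. Over glycerol, galactose and pentose use together, 3 of 11 genes were higher (27.3%, against 8.49% of all features) and 1 was lower (9.09%, against 9.07%). For storage sugars, 2 of 6 genes for glycogen and trehalose were lower (33.3%, against 9.07% of all features) and none was higher (against 8.49%). Both were trehalases, enzymes that split trehalose into glucose, a GH65 enzyme (Trire2:123456) 5.05-fold and a GH37 enzyme (Trire2:123226) 2.49-fold lower. Another GH65 trehalase (Trire2:25224) went the other way, at 0.55 (95% interval 0.19 to 0.92), and was not called. Glycogen phosphorylase (gph1) at -0.57 and glycogen synthase (gys1) at -0.06 were not called either.

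**Figure D2:**
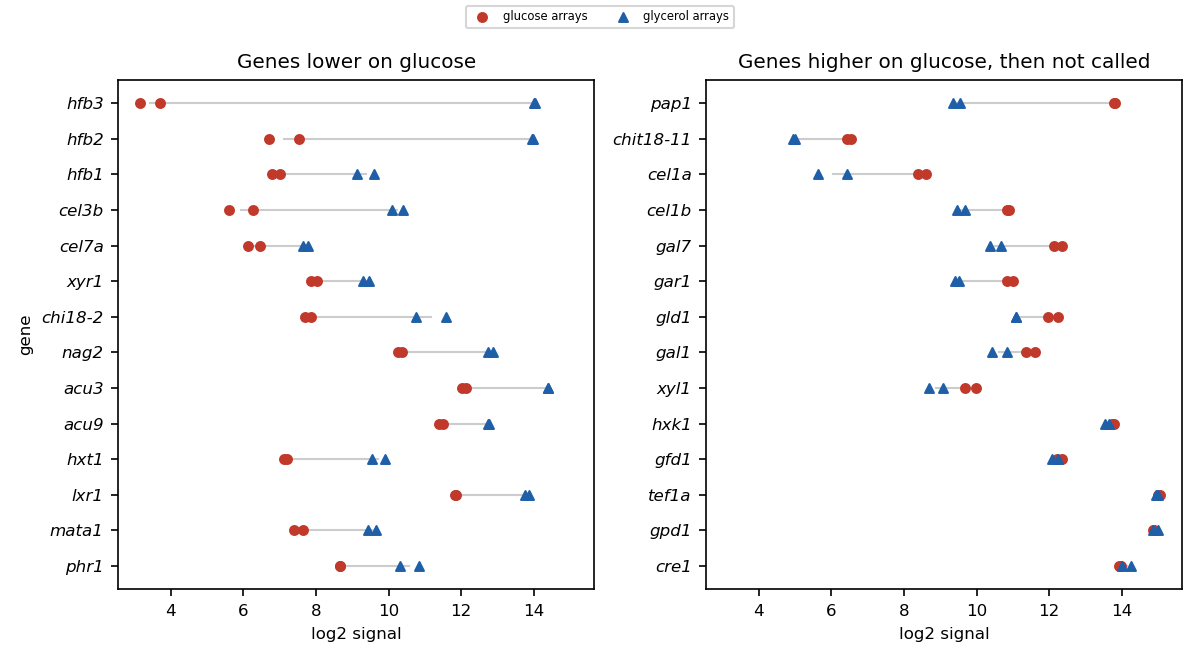
Each row is a gene and the horizontal axis is the log2 signal. Red circles are the 2 glucose arrays, blue triangles the 2 glycerol arrays and the grey line joins their means. The left panel holds genes lower on glucose, from hfb3 with the widest gap to phr1. The right panel holds genes higher on glucose down to gld1, then genes not called, in which both carbon sources lie within 2-fold, from gal1 at a difference of 0.86 to cre1 at -0.19.

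Of the 21 genes for cellulases, β-glucosidases and accessory proteins 2 were higher on glucose (9.52%, against 8.49% of all features), 4 were lower (19.0%, against 9.07%) and 15 were not called, and 9 were at the low end on at least 1 carbon source. The list median was 0.01, and 13 of the 21 genes had a positive difference. The main cellobiohydrolase gene cel7a (Trire2:123989) had 6.12 and 6.45 on glucose, against 7.64 and 7.78 on glycerol, 2.69-fold lower on glucose (-1.43 ± 0.14, SE; limma adjusted p = 6.14e-05). Swollenin (Trire2:123992), a protein that loosens cellulose, had 7.20 and 7.15 on glucose, against 8.69 and 9.19 on glycerol, 3.39-fold lower. A gene annotated as related to plant expansins (Trire2:104079) was 4.55-fold lower, with 5.08 and 4.89 on glucose, against 7.41 and 6.94 on glycerol. The second cellobiohydrolase gene, cel6a (Trire2:72567), was at the low end on both, with 3.64 and 3.96 on glucose, against 3.94 and 3.64 on glycerol, so a difference could not be measured. The endoglucanase genes cel5a and cel12a and the polysaccharide monooxygenase genes cel61a and cel61b were likewise at the low end on both. A GH45 endoglucanase gene (Trire2:49976) was at 0.94 and not called, and it was 1.19 without glycerol replicate 1.

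The β-glucosidases, which release glucose from cellobiose, split. cel3b (Trire2:121735) had 5.62 and 6.27 on glucose, against 10.40 and 10.09 on glycerol, and was 19.7-fold lower (limma adjusted p = 1.07e-06). The GH1 genes were higher on glucose, cel1a (Trire2:120749) by 5.51-fold with 8.37 and 8.62 on glucose, against 6.44 and 5.63 on glycerol, and cel1b (Trire2:22197) by 2.45-fold with 10.88 and 10.83 on glucose, against 9.46 and 9.67 on glycerol. cel3a was at 0.01 (95% interval -0.37 to 0.39). Of the 33 genes for xylan, xyloglucan and side chain enzymes none was higher (against 8.49% of all features) and 5 were lower (15.2%, against 9.07%). The list median was -0.225. Among features with a function annotated by the study and no symbol, 12.9% were lower. The lower genes included a GH27 α-galactosidase (Trire2:72704) at -1.75 and a GH43 enzyme (Trire2:3739) at -1.88 with glucose at the low end.

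The regulator of cellulase and xylanase genes xyr1 (Trire2:122208) had 8.02 and 7.86 on glucose, against 9.31 and 9.46 on glycerol, 2.73-fold lower on glucose (limma adjusted p = 5.02e-05). The repressor gene cre1 (Trire2:120117) had 13.93 and 13.97 on glucose, against 14.26 and 14.02 on glycerol, a difference of -0.19 with a 95% interval of -0.48 to 0.11. Of the 10 regulators on this list xyr1 alone was called (10.0%, against 17.6% of all features). The protein kinase gene snf1 was at -0.93 and passed the threshold without glucose replicate 2 (-1.04) and without glycerol replicate 2 (-1.06). The ace1 gene was at -0.28. The lactose permease gene studied in these cultures had 8.21 and 8.04 on glucose, against 8.13 and 8.53 on glycerol, and the arrays overlapped (limma adjusted p = 0.322).

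Among other transcriptional regulators annotated by the study, the largest differences were of genes lower on glucose. A bZIP gene related to JlbA/IDI-4 (Trire2:107974) had 4.86 and 4.86 on glucose, against 10.06 and 10.10 on glycerol, 37.4-fold lower. A C2H2 regulator gene (Trire2:22785) had 6.86 and 6.79 on glucose, against 11.09 and 11.34 on glycerol, 21.0-fold lower. The Zn2Cys6 regulator gene Trire2:105269, at the low end on glucose, was 8.0-fold lower, and Trire2:112134 of the same class 6.4-fold lower. In the other direction a Zn2Cys6 regulator gene (Trire2:102499) had 12.28 and 12.18 on glucose, against 9.59 and 9.85 on glycerol, 5.70-fold higher. Of the 67 regulators 4 were higher and 7 were lower (5.97% and 10.4%), shares close to the 8.49% and 9.07% of all features, and without glycerol replicate 2 the higher count was 7.

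Chitin-degrading enzymes went in both directions. Fungi carry many GH18 chitinases for remodelling of their own wall and for attack on other fungi, and N-acetylglucosaminidases finish the breakdown. chi18-2 (Trire2:59082) had 7.87 and 7.71 on glucose, against 10.76 and 11.58 on glycerol, 10.4-fold lower (limma adjusted p = 9.48e-06). The N-acetylglucosaminidase gene nag2 (Trire2:23346) had 10.38 and 10.26 on glucose, against 12.87 and 12.73 on glycerol, 5.60-fold lower, while its relative nag1 was at -0.15. chi18-rel1 was 3.33-fold and chi18-7 2.28-fold lower. In the other direction chi18-12 (Trire2:43873) had 6.52 and 6.43 on glucose, against 3.13 and 3.13 at the low end on glycerol. chit18-11 was 2.84-fold higher. chi18-17 was called higher at 1.38, but both of its groups lay at the low end. Of the 20 genes 3 were higher and 4 were lower (35.0% called, against 17.6% of all features), and the list median was -0.04.

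Transporters were called in both directions. Of 78 genes for permeases of the major facilitator superfamily (MFS), many of which carry sugars, 8 were higher on glucose (10.3%, against 8.49% of all features) and 21 were lower (26.9%, against 9.07%). The list median was -0.12. The glucose permease gene hxt1 (Trire2:22912) had 7.20 and 7.13 on glucose, against 9.90 and 9.54 on glycerol, and was 5.87-fold lower on glucose (limma adjusted p = 2.31e-06). The MFS gene Trire2:76800 had 11.21 and 10.80 on glucose, against 13.73 and 13.63 on glycerol, 6.40-fold lower, and Trire2:53903 had 4.72 and 4.64 on glucose, against 7.65 and 8.09 on glycerol. The highest on glucose was Trire2:68122, with 12.78 and 12.98 on glucose, against 8.99 and 9.36 on glycerol, 13.0-fold higher.

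Among amino acid and peptide transporters higher genes outnumbered lower ones. Of 30 genes for the uptake of amino acids, peptides and allantoate 11 were higher (36.7%, against 8.49% of all features) and 3 were lower (10.0%, near the 9.07% of all features), with a median of 0.43. The amino acid transporter gene Trire2:68831 had 11.62 and 11.68 on glucose, against 6.41 and 6.79 on glycerol, 33.1-fold higher (limma adjusted p = 1.33e-07). Trire2:110316 had 14.26 and 14.31 on glucose, against 10.23 and 10.55 on glycerol, 14.9-fold higher, and thus was among the bright genes of the glucose arrays. Trire2:82014 was 14.5-fold higher. The 3 lower genes, among them a GABA permease (Trire2:70098) at -2.79 and LysP (Trire2:66819) at -2.63, were all at the low end on glucose. A high affinity ammonium transporter gene (Trire2:82204) was 3.19-fold higher, with 11.72 and 11.92 on glucose, against 10.13 and 10.15 on glycerol. The ammonium transporter genes Trire2:82095 at 0.72 and Trire2:43671 at 0.44 were not called. A gene annotated as ISP4 (Trire2:64167), a family of oligopeptide transporters in yeasts, had 13.17 and 13.14 on glucose, against 8.56 and 8.41 on glycerol, 25.4-fold higher.

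Secreted and other peptidases included some of the largest named differences. A tripeptide peptidase gene (Trire2:82623) had 13.83 and 13.92 on glucose, against 8.12 and 8.29 on glycerol, 50.9-fold higher (5.67 ± 0.12, SE; limma adjusted p = 1.15e-08). The aspartyl protease gene pap1 (Trire2:74156) had 13.82 and 13.79 on glucose, against 9.53 and 9.36 on glycerol, 20.4-fold higher (limma adjusted p = 4.36e-08). A peptidase S41 gene (Trire2:103039) was 14.6-fold higher. Others were lower on glucose, led by a metallopeptidase (Trire2:111121) with 8.67 and 8.91 on glucose, against 11.70 and 12.03 on glycerol, 8.40-fold lower, and a carboxypeptidase A gene (Trire2:22459), 4.26-fold lower. Of the 33 genes 6 were higher, 6 were lower (18.2% each, against 8.49% and 9.07% of all features) and 21 were not called, with a median of 0.01. Among features with a function annotated by the study and no symbol, the shares were 14.9% and 12.9%.

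A gene for each of 4 enzymes between sulfate and sulfide was higher on glucose. Sulfate is first activated by sulfate adenylyltransferase and by adenosine phosphosulfate kinase, and then reduced by phosphoadenosine phosphosulfate reductase and by sulfite reductase. The adenylyltransferase gene (Trire2:47066) had 14.40 and 14.32 on glucose, against 13.01 and 12.73 on glycerol, 2.81-fold higher. The kinase gene (Trire2:75704) had 13.15 and 13.11 on glucose, against 11.02 and 10.88 on glycerol, 4.54-fold higher (limma adjusted p = 1.62e-06). The phosphosulfate reductase gene (Trire2:65410) had 14.12 and 14.16 on glucose, against 12.44 and 12.42 on glycerol, 3.27-fold higher. The gene for the alpha subunit of sulfite reductase (Trire2:81576) had 14.58 and 14.17 on glucose, against 12.54 and 12.51 on glycerol, 3.60-fold higher. None of these 4 genes had overlapping arrays, where 36.8% of all features were without overlap and higher on glucose.

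Further genes of sulfur amino acid synthesis differed less. A cystathionine lyase gene (Trire2:3641) was at 1.06, and at 0.99 without glycerol replicate 1. The homoserine acetyltransferase gene met2 was at 0.94, and at 1.11 without glycerol replicate 2. The cysteine synthase gene (Trire2:81089) was at 0.58. Of the 9 genes on this list 5 were higher (55.6%, against 8.49% of all features) and none was lower (against 9.07%), with a median of 1.06.

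Genes listed under oxidant defence, glutathione S-transferases among them, were higher or not called. Of 3 catalase genes annotated without a symbol, Trire2:120371 had 9.42 and 9.34 on glucose, against 5.43 and 5.59 on glycerol, 14.6-fold higher (limma adjusted p = 1.26e-07). Trire2:58472 had 9.80 and 9.64 on glucose, against 6.75 and 6.93 on glycerol, 7.40-fold higher. Trire2:67538 was at 1.03, and at 0.99 with the arrays centred on their medians. The catalase gene cat1 was at the low end on both carbon sources. A pair of glutathione S-transferase genes was higher, Trire2:22453 by 4.18-fold and Trire2:112633 by 3.33-fold. The superoxide dismutase gene sod1 was at -0.17. In all 5 of 19 genes were higher (26.3%, against 8.49% of all features) and none was lower (against 9.07%), and the median was 0.46.

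Some oxidoreductases of other kinds were also higher on glucose. A gene of the GMC oxidoreductase family (Trire2:66795), flavoenzymes that oxidise alcohols, had 11.76 and 12.00 on glucose, against 5.16 and 5.81 on glycerol, 84.5-fold higher, the largest rise of an annotated gene. A gene annotated as a DszA-like xenobiotic monooxygenase (Trire2:59876) had 11.86 and 11.87 on glucose, against 5.64 and 5.64 on glycerol, 74.6-fold higher. A flavin-containing monooxygenase gene (Trire2:22110) was 16.2-fold higher. Of 21 genes for alcohol and aldehyde metabolism 7 were higher and 1 was lower (33.3% and 4.76%, against 8.49% and 9.07% of all features), with a class V alcohol dehydrogenase (Trire2:69956) leading at 12.85 and 12.94 on glucose, against 10.06 and 10.14 on glycerol, 6.92-fold higher. Pyruvate decarboxylase (Trire2:121534), the enzyme that opens the route from pyruvate to ethanol, was at -0.27. Short chain dehydrogenases had 7 higher and 3 lower of 27 genes (25.9% and 11.1%, the second near the 9.07% of all features), led by Trire2:103113, 8.34-fold higher.

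**Figure D3:**
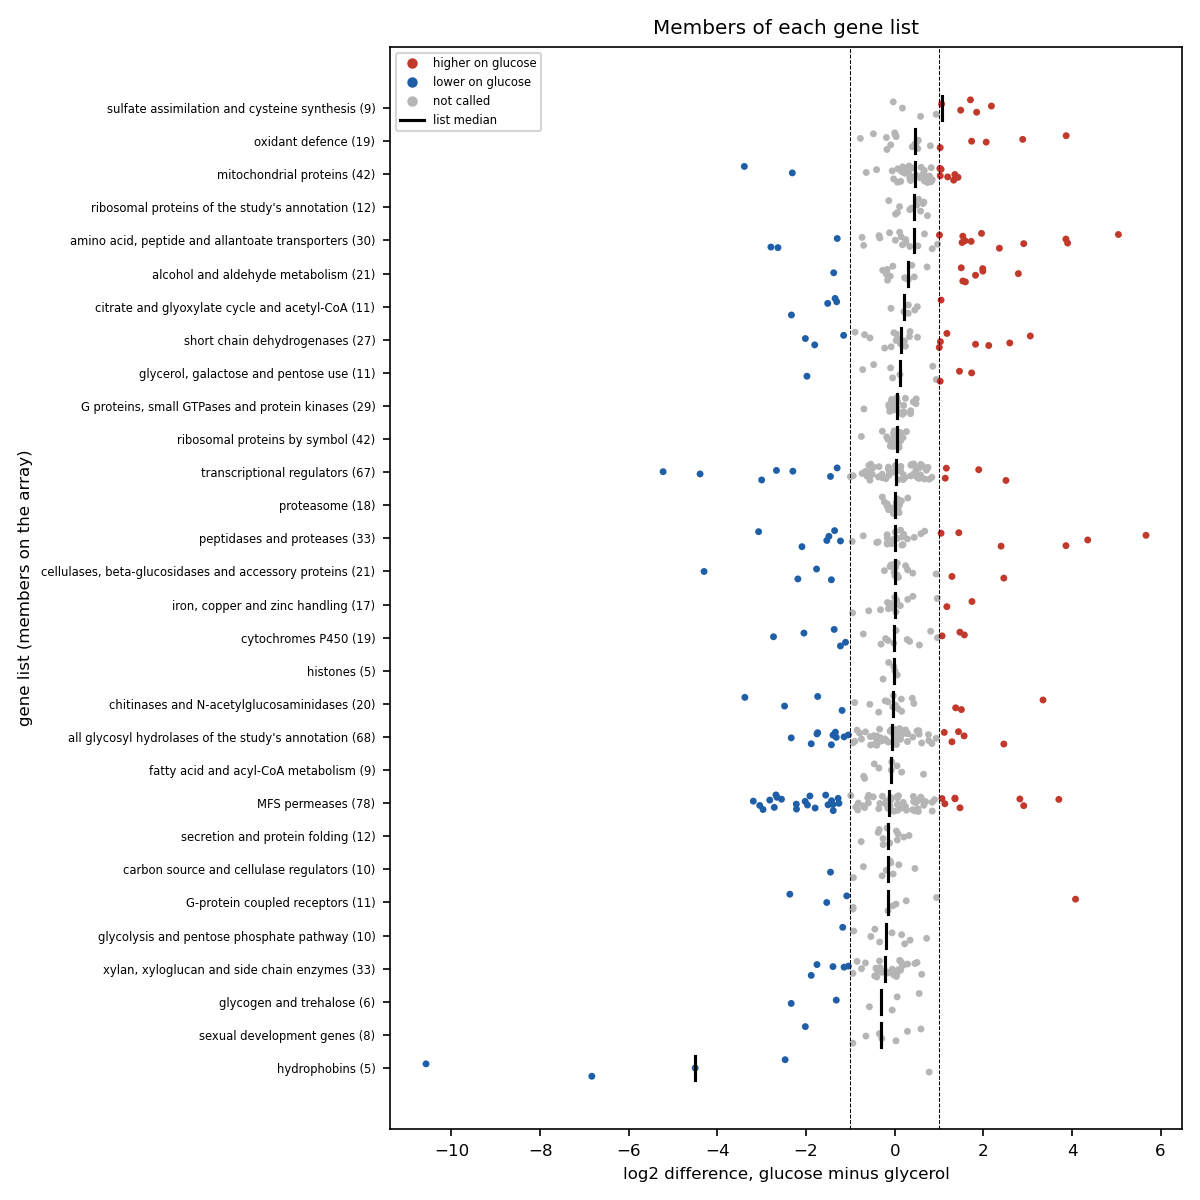
Each row is a gene list with the number of its members on the array, and each point is 1 member at its log2 difference, glucose minus glycerol. Red points were called higher on glucose, blue points lower and grey points were not called. The black bar is the list median, and dashed lines mark 2-fold. Medians run from 1.06 for sulfate assimilation to -4.50 for hydrophobins, and genes of the ribosome, the proteasome and the histones gather close to 0.

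Genes of the mitochondrion were shifted upward by amounts that mostly stayed under 2-fold. Of 42 genes 36 had a positive difference (53.2% of all features had one), with a list median of 0.45, and 7 were called higher and 2 lower (16.7% and 4.76%, against 8.49% and 9.07% of all features). The higher genes included an inner membrane insertase (Trire2:121436), with 10.75 and 10.41 on glucose, against 9.26 and 9.05 on glycerol, and the translocase component TIM40 (Trire2:31611) at 1.02, which was 0.97 without glucose replicate 1 and 0.94 without glycerol replicate 2. An RNA helicase gene of the organelle (Trire2:54064) was 2.56-fold higher. Both lower genes were the organic acid carriers given above.

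Several classes held no called gene, where 17.6% of all features and 11.1% of those with a RefSeq symbol were called. In the smaller of these lists an absence of calls says little. Of 42 genes of ribosomal proteins with a symbol, all lay between -0.75 and 0.26, with a median of 0.05, and the 12 ribosomal protein genes of the study's annotation, several of them mitochondrial, lay between -0.13 and 0.74. The 18 proteasome genes lay between -0.28 and 0.30 and the 5 histone genes between -0.26 and 0.06. The 29 genes of G proteins, small GTPases and protein kinases ranged from -0.70 (nik1, a histidine kinase) to 0.49 (ras2), and the 12 genes of secretion and protein folding from -0.76 (pdi1, a protein disulfide isomerase) to 0.32 (mpg1). Fatty acid and acyl-CoA metabolism had none of 9 called. The translation elongation factor gene tef1a (Trire2:46958), often used as an internal standard, had 14.99 and 15.06 on glucose, against 14.99 and 14.95 on glycerol, a difference of 0.06 with a 95% interval of -0.21 to 0.32.

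Receptors, mating and light genes added a few strong differences. Of 11 receptor genes 1 was higher and 3 were lower (9.09% and 27.3%, against 8.49% and 9.07% of all features), and 2 lower when signals under the low end were raised to it. The call so lost was of a PTH11 receptor gene (Trire2:107042), at -1.08 with glucose at the low end and at -0.16 after the raising. Of 4 light response genes 1 was lower (25.0%, against 9.07% of all features) and none was higher. A G-protein coupled receptor gene of the PTH11 class (Trire2:122824) had 12.43 and 12.62 on glucose, against 8.45 and 8.45 on glycerol, 16.9-fold higher (limma adjusted p = 2.29e-07). A receptor gene with an RGS domain (Trire2:63981) had 8.02 and 7.87 on glucose, against 10.23 and 10.39 on glycerol, 5.15-fold lower. The mating type gene mata1 (Trire2:124341), which encodes MAT1-2-1, had 7.40 and 7.65 on glucose, against 9.42 and 9.66 on glycerol, 4.04-fold lower (limma adjusted p = 7.43e-06). It was the only one of 8 sexual development genes called on all arrays (12.5%, against 17.6% of all features). A pheromone receptor gene (Trire2:64018) at -0.94 passed without glucose replicate 1 (-1.03) and without glycerol replicate 2 (-1.08). The photolyase gene phr1 (Trire2:107680), which encodes a light-driven DNA repair enzyme, had 8.65 and 8.66 on glucose, against 10.32 and 10.83 on glycerol, 3.79-fold lower, while env1 was at -0.65 and the photoreceptor genes blr1 and blr2 were at 0.02 and -0.19.

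In secondary metabolism the polyketide synthase gene Trire2:73618 had 15.29 and 15.15 on glucose, against 13.87 and 13.86 on glycerol, 2.55-fold higher and bright on both. The polyketide synthase gene Trire2:73621 had 14.80 and 14.89 on glucose, against 13.59 and 13.85 on glycerol. Its difference of 1.12 was 0.99 without glycerol replicate 1. The peptide synthase genes Trire2:60751 at -0.32 and Trire2:67189 at 0.02 were not called. Cytochromes P450, which serve secondary metabolism and detoxification, had 3 higher and 5 lower of 19 genes (15.8% and 26.3%, against 8.49% and 9.07% of all features), and 3 lower when signals under the low end were raised to it. A glycosyltransferase gene of family GT32 (Trire2:120923), enzymes that act on sugar chains, had 6.58 and 6.45 on glucose, against 12.16 and 12.14 on glycerol, 49.7-fold lower. A gene related to GPR1/FUN34/yaaH (Trire2:62872), a family that includes acetate transporters of yeasts, had 4.83 and 5.10 on glucose, against 9.90 and 9.94 on glycerol, 31.1-fold lower. A Rab geranyl transferase escort protein gene (Trire2:44278) had 13.72 and 13.85 on glucose, against 9.42 and 9.18 on glycerol, 22.4-fold higher.

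Genes called in 1 direction also lay side by side. In fungi, genes of one pathway are often neighbours on the chromosome. Gene order was taken from the RefSeq annotation for 9094 features. It gave 20 runs of at least 4 neighbouring genes called in 1 direction, 10 higher with 46 genes and 10 lower with 43 genes. Of these, 8 runs held 5 or 6 genes. The longest, 6 genes higher on glucose over 17.7 kb between first and last start, began with the amino acid transporter Trire2:110316 and went on with chi18-17 and an alcohol oxidase (Trire2:80659). Raising signals to the low end ended the calls of chi18-17 (0.00) and of the alcohol oxidase (0.16) and with them this run.

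A run of 5 genes lower on glucose surrounded chi18-2. The chitinase gene stood at -3.38, its neighbours on one side, Trire2:120975 and Trire2:58475, at -2.97 and -3.31, and those on the other side, Trire2:58389 and Trire2:73048, at -2.28 and -1.73. Another 5 lower genes, from Trire2:58698 at -3.29 to Trire2:121107 at -2.57, held Trire2:58584 at -5.14 in their middle. Among runs higher on glucose, 5 genes began with an MFS permease (Trire2:123702), which had 14.12 and 14.14 on glucose, against 11.13 and 11.47 on glycerol, followed by a polysaccharide lyase gene (Trire2:111245) at 2.02 and a formamidase gene (Trire2:81511) at 1.05. The formamidase was 0.99 after a further quantile normalization, 0.998 without glucose replicate 1 and 0.79 without glycerol replicate 1. A further run of 5 higher genes, with no named member, peaked at Trire2:5647 with 3.75. Of the 8 runs of 5 or more, 3 kept every member called under each scaling, each other estimate of the spread and each left-out array, among them the run around chi18-2.

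**Figure D4:**
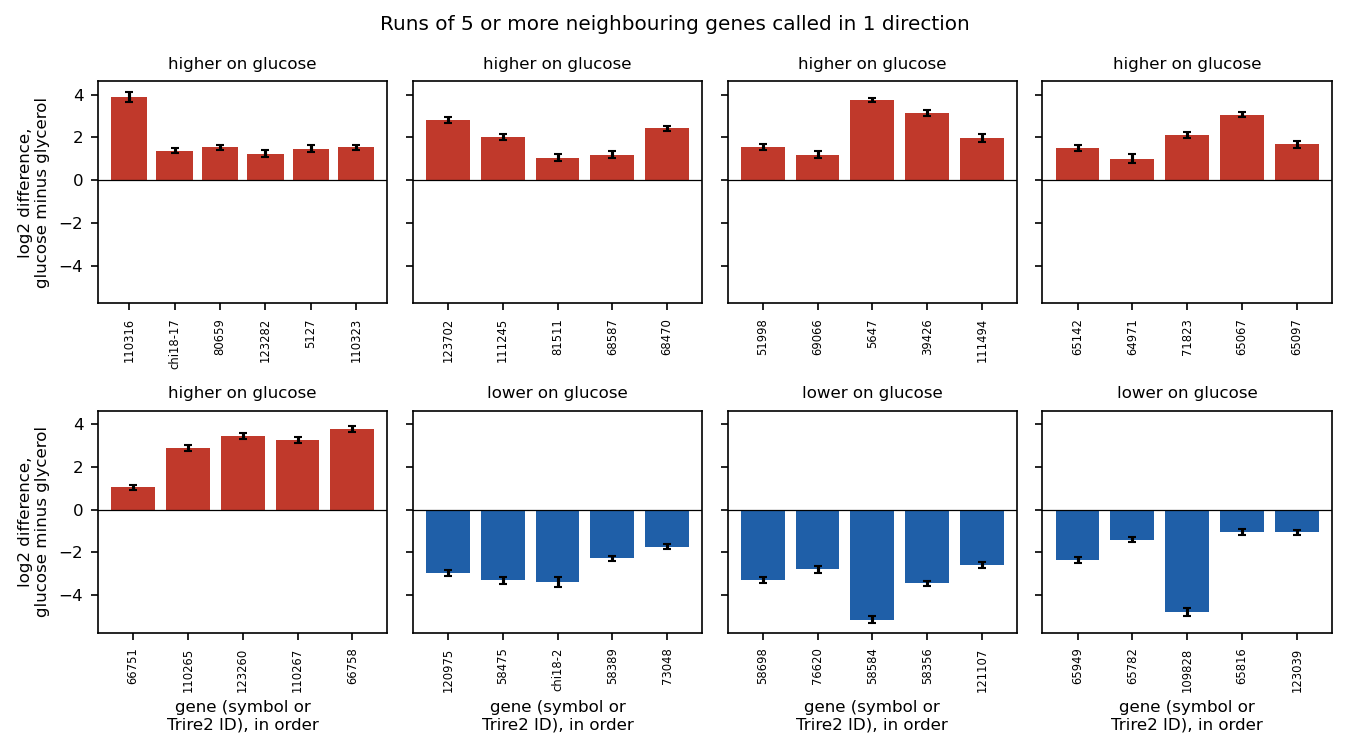
Each panel is 1 run of 5 or more neighbouring genes called in 1 direction, with the genes in chromosomal order on the horizontal axis. Bars are the log2 difference, glucose minus glycerol, and error bars the SE of the limma fit. The 5 red runs were higher on glucose, the first of them led by Trire2:110316 at 3.90, and the 3 blue runs lower, among them the run around chi18-2 at -3.38.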

How the data were processed

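Total RNA of T. reesei mycelia was hybridized to single-colour NimbleGen arrays. The authors deposited log2 values, 1 per feature and array, summarised by RMA (no version given). How background was corrected and arrays were normalized is not given in the sources used here. A deposited table of group means with the authors' own lactose comparisons (folds, p-values) was not used, and 0 columns of values per array were left unused. Depth does not apply, and precision is limited by 2 arrays per carbon source.

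All 6 arrays were fitted with limma 3.58.1 (R 4.3.3, eBayes defaults, 1 mean per carbon source, no filter). The prior SD was 0.135 with 5.10 degrees of freedom beside 3 residual. The fit was tested on simulated data. Counts and figures used Python 3.11.15, pandas 2.3.3 and matplotlib 3.10.9.

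Gene lists were formed by words in the study's annotation and by RefSeq symbols. Members, lists and comparisons were chosen with earlier results of these data known, and the lists were completed after the symbols were seen. Genes named were the 15 largest differences each way, the 10 largest each way with a name, up to 4 per list, a few genes of the study and members of the longest runs of neighbours. Others were chosen after their values were seen. Neighbours followed RefSeq start order with at most 30 kb between starts, and names came from 9094 matched locus tags. Alternatives are given in the closing section.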

Additional observations from a re-analysis of the deposited data

How the results depend on the processing

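The count of higher genes was 775 and that of lower genes 828. At over 1.5-fold they were 1441 and 1386, at over 4-fold 267 and 279, and in a test against 2-fold 441 and 461. Without the dimmest 25% of features 473 higher genes were called, from fewer features tested, and 559 lower ones. Leaving out 1 array at a time gave 766 to 802 higher and 825 to 845 lower genes. The share of higher among called genes lay between 45.6% and 51.0% over all alternatives. Direction was compared only where a gene was called, as deposited or under an alternative. So compared, no gene named by the rule changed direction. At the 2-fold threshold, another scaling or a left-out array ended or added calls among them only for genes within about 0.2 of a log2 difference of 1 or -1. Raising low signals also ended the calls of genes further away, Trire2:70842 (-0.87, against -2.05 as deposited), Trire2:80659 (0.16, against 1.54) and chi18-17 (0.00, against 1.38).

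The replicate numbers share only a number. Deviations of same-numbered arrays correlated with r = 0.07 between glucose and glycerol, and the replicate block gave 775 higher and 827 lower genes, so pairing did not move the counts by over 1.5 times.

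With 2 arrays per carbon source and no detection calls, differences of dim genes are the least certain. Of the called genes 207 had a group at the low end, and setting signals under the low end to that level left 735 higher and 783 lower genes. Sequence features, planned from RefSeq proteins and promoters, were not run.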
